A study of Mus musculus with 21 samples.

Results

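Part 7 and part 1 were the ends of a numbered series of 7 pieces into which the presomitic mesoderm (PSM) of mouse embryos was cut, and expression in part 7 was compared here with expression in part 1. The members were the arrays whose titles name these parts, 3 for each, so 6 of the 21 arrays of the series. Every sample was untreated PSM of CD-1 embryos, an outbred stock, staged as embryonic day 8.5 (the dissection protocol gives 9.0 days post-coitus). The groups shared strain, stage and handling and differed in part number alone. Embryos were treated with pancreatin, at 2 mg/ml for 1 min, and ectoderm, endoderm and lateral plate were removed with needles before the cuts were made. The labels speak of a course from tailbud to somite but do not say which part number lies at which end, so positions are given as part numbers. The replicates are labelled biological, but the design names 2 embryos as sources, with both sides of the PSM used in 1 of them. Which replicate numbers share an embryo is not stated. Some arrays therefore share an embryo, so the p-values measure the spread between these arrays and not the spread between embryos. Sharing within a part makes them too small for differences between embryos. Arrays of different parts may share an embryo too, so the net error is unknown.

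The PSM is the unsegmented mesoderm beside the caudal neural tube. Cells enter it from progenitors in the tailbud, where Wnt and FGF signals are high and retinoic acid is broken down, and pass forward towards the somites, where retinoic acid is made and somite genes begin to be transcribed. A molecular clock driven by Notch, Wnt and FGF signalling sets the interval at which boundaries form at the front, and Hox genes give the segments their identity along the body axis.

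Levels are given as log2 of the MAS5 signal plus 16, with the arrays in the order of replicates 1, 2 and 3, so that a signal of 0 becomes 4. Differences are part 7 minus part 1 with the standard error (SE) of the limma fit over all 21 arrays, and a gene was called when its p-value, adjusted by Benjamini-Hochberg over 12141 genes, was under 0.05. The fit had no term for the replicate number, so spread shared by arrays of a number stayed in its error. With the number as a block, 50 of 301 list members and named genes not called were called. The array means lay between 152 and 153 in these 6 arrays, with medians from 13.1 to 13.6. All 12 PSM tissue markers passed the filter on low signal, and they split between the ends: 5 were higher, 5 lower and Lfng and Mesp2 not called. Individual arrays stood apart from the other arrays of their part. In replicate 2 of part 7, 71 genes lay more than 1 log2 unit above both other arrays and 55 below. In replicate 1 of part 1 these counts were 97 and 70. In replicate 2 of part 1 they were 19 and 54, in replicate 3 of part 1 they were 65 and 51. In replicate 3 of part 7 they were 64 and 45, and in replicate 1 of part 7 only 10 and 24. Of the 184 called genes in the lists below or with the largest differences, 124 were also called without each of the 6 arrays in turn, and the named genes among the other 60 are given with the arrays concerned.

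Of the 12141 genes, 1625 (13.4%) were called, of which 740 (6.10%) were higher and 885 (7.29%) lower in part 7. More than 2-fold differences were found in 671 of them, 263 higher and 408 lower, and differences over 8-fold in 39 higher and 33 lower. The values of the 3 arrays of part 7 lay wholly outside those of part 1 in 1573 of the 1625, against 3533 (29.1%) of all genes. The median difference of all genes was 0.0014. Counts in the lists below are to be read against the 13.4% of all genes called. The share called was 25% for cadherins, 30.8% for integrins, 33.3% for matrix genes, 34.8% for BMP and 36.4% for Notch genes. It was 38.5% for Wnt targets, 42.9% for FGF receptors, 44.4% for guidance and 46.2% for retinoic acid genes. It was 50% for Wnt ligands and boundary genes, 52.9% for Eph genes and 57.1% for Wnt modulators and TALE cofactors. The lists were chosen with earlier results known. The count of calls was 1520 without replicate 2 of part 7, 1231 without replicate 1 of part 1 and between 1108 and 1436 without any of the other 4 arrays. In bulk tissue, fewer cells of a type and less RNA per cell cannot be told apart.

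**Figure D1:**
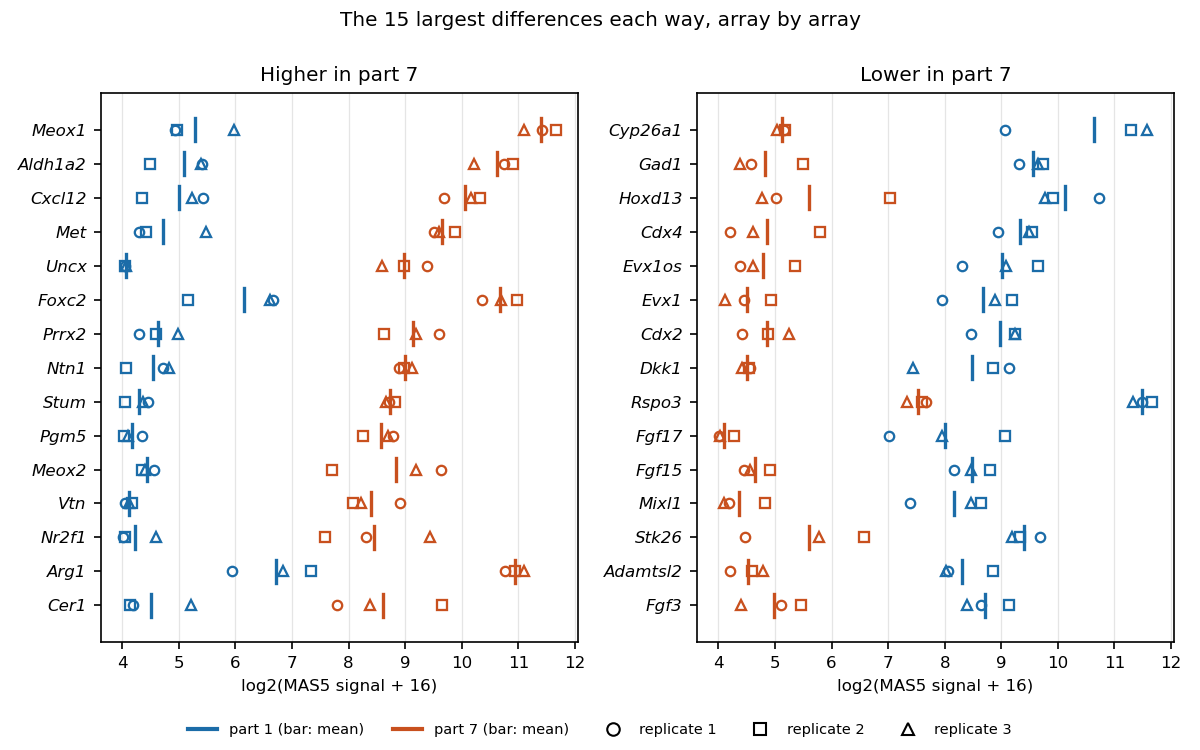
Log2(MAS5 signal + 16) of the 15 genes with the largest called difference each way, with 1 symbol per array, circles, squares and triangles for replicates 1, 2 and 3, and a bar at the mean of each part. In every gene shown the 3 arrays of part 7 lie apart from the 3 of part 1, with Meox1 at a mean of 5.29 in part 1 and 11.40 in part 7.

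The enzymes that set the level of retinoic acid were at opposite ends. Cyp26a1, the enzyme that breaks retinoic acid down, read 9.07, 11.29 and 11.58 in part 1 and 5.16, 5.18 and 5.03 in part 7. The 3 arrays of part 7 lay close together and far below every array of part 1, where replicate 1 was the lowest. The difference was -5.52 ± 0.64, 45.8-fold lower in part 7 (adjusted p = 5.56e-06), the largest fall of all genes called. Aldh1a2, which catalyses the last step of retinoic acid synthesis, read 5.41, 4.49 and 5.38 in part 1 and 10.75, 10.91 and 10.22 in part 7, with no overlap and a difference of 5.53 ± 0.30, 46.3-fold higher (adjusted p = 3.5e-10). The bases just upstream of both starts are shown because these enzymes gave the largest fall and, after Meox1, the largest rise. They are RefSeq sequence of GRCm38.p6, 250 bases 5′ to 3′ on the gene's strand, ending at the base before the transcription start, at chr19:37697558-37697807 (+) for Cyp26a1 and chr9:71215539-71215788 (+) for Aldh1a2. Capitals mark a match to the searched motifs.
Cyp26a1: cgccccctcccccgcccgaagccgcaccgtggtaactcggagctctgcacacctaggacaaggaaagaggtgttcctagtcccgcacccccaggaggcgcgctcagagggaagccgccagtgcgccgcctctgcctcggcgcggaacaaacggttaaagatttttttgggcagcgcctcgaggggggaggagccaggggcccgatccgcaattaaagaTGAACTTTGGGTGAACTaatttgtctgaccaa
Aldh1a2: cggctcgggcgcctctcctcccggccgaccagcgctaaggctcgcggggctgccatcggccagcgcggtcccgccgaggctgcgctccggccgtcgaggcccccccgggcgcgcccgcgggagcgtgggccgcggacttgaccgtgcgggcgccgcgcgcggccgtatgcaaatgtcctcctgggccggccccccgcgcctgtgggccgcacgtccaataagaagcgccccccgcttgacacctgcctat The capitals in Cyp26a1 match the DR5 retinoic acid response element, a direct repeat to which retinoic acid receptors bind, on the minus strand from 32 to 16 bases upstream of the start. That element was found in 29 (0.0884%) of 32817 RefSeq windows of this length. Of the 30 genes with the largest differences 22 had a window, and the element was in no other of these genes. A match describes letters in a window and says nothing of binding in these samples.

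Of the 13 retinoic acid genes that passed the filter, 2 were higher, 4 lower and 7 not called, with a median difference of 0.24. Crabp2, which carries retinoic acid within cells, read 9.45, 9.64 and 9.72 in part 1 and 7.08, 7.34 and 7.23 in part 7. It was 5.22-fold lower (-2.38 ± 0.19, adjusted p = 3.99e-08). The receptor Rarg was 3.81-fold lower (-1.93 ± 0.21, adjusted p = 1.71e-06) and Rbp4, the plasma carrier of retinol, 2.64-fold lower (-1.40 ± 0.32). Another receptor gene, Rarb, was 1.58-fold higher (0.66 ± 0.18, adjusted p = 0.0183), at low signal in all 6 arrays. Rdh10, which makes the retinaldehyde that Aldh1a2 uses, read 6.84, 6.62 and 6.48 in part 1 and 7.40, 6.74 and 8.32 in part 7. The groups overlapped and it was not called (adjusted p = 0.169, 95% confidence interval 0.03 to 1.65). Rarb lost its call without replicate 1 of part 1 or replicate 1 or 3 of part 7 (adjusted p up to 0.0924). In all, 1 member was higher without replicate 1 or 3 of part 7.

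Regulators of tailbud progenitors were lower in part 7. Of 15 that passed the filter, 10 were lower, 0 higher and 5 not called, against 7.29% of all genes lower, and their median difference was -1.63. Cdx4, a caudal homeobox factor that keeps the axis growing, read 8.94, 9.55 and 9.48 in part 1 and 4.20, 5.79 and 4.60 in part 7. Its relative Cdx2 read 8.46, 9.25 and 9.24 in part 1 and 4.42, 4.88 and 5.25 in part 7. In both genes every array of part 7 was at least 3 units under the lowest array of part 1. The falls were 22.0-fold for Cdx4 (-4.46 ± 0.41, adjusted p = 2.51e-07) and 17.6-fold for Cdx2 (-4.13 ± 0.40). Cdx1, of the same family, read 4.96, 5.32 and 4.08 in part 1 and 5.90, 5.62 and 5.27 in part 7. It was not called (0.81 ± 0.35, adjusted p = 0.145). The homeobox gene Evx1, a marker of the tailbud and primitive streak, was 18.1-fold lower (-4.18 ± 0.40), and its neighbour Evx1os, a noncoding transcript, 18.8-fold lower (-4.23 ± 0.38). Whether the probes separate the neighbouring loci was not tested. Mixl1, a homeobox gene of the primitive streak, was 13.9-fold lower (-3.79 ± 0.36). Nkx1-2, a marker of the progenitors that give neural tube and mesoderm, read 6.77, 8.32 and 9.82 in part 1 and 4.94, 4.94 and 4.90 in part 7, low in replicate 1 of part 1, and was 10.4-fold lower (adjusted p = 0.00107). Smaller called falls were those of Sp8, Sp5, Lin28a and Cited1, from -2.15 to -1.41, and of Sall4 (-0.57 ± 0.17, adjusted p = 0.030), whose arrays overlapped. Sall4 lost its call without replicate 2 or 3 of part 1 or replicate 1 or 3 of part 7 (adjusted p up to 0.156). Sox2 and Sox3, SOXB1 genes of neural progenitors, were not called (adjusted p = 0.166 and 0.229). Sox2 read 4.83, 5.62 and 6.43 in part 1 and 4.85, 4.85 and 4.73 in part 7. Without replicate 1 of part 1 it was called lower (-1.22, adjusted p = 0.0483).

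Posterior PSM regulators followed the same direction in 9 of 11 cases, with Fgfr1 higher, Pdgfra not called and a median of -1.86. Of all genes 7.29% were lower. Without replicate 3 of part 1 Pdgfra was called lower (-0.58, adjusted p = 0.0306). Rspo3, a secreted enhancer of Wnt signalling, read 11.48, 11.67 and 11.32 in part 1 and 7.68, 7.60 and 7.33 in part 7. Its arrays were tight in both parts and 15.5-fold apart (-3.96 ± 0.25, adjusted p = 2.36e-09). Tbx6, the T-box factor that commits cells to paraxial mesoderm, read 9.27, 9.08 and 8.94 in part 1 and 5.16, 6.05 and 5.13 in part 7. It was 12.6-fold lower (-3.65 ± 0.25, adjusted p = 6.77e-09). Dll1, a Notch ligand of the PSM, was 6.64-fold lower (-2.73 ± 0.45), and Lef1, a DNA-binding partner of beta-catenin, 2.31-fold lower (-1.21 ± 0.30). Msgn1, a target of Wnt and Tbx6 that drives PSM maturation, read 6.51, 5.58 and 5.24 in part 1 and 5.02, 4.14 and 4.27 in part 7, with 1.30 units between the means (adjusted p = 0.0122). Snai1, a repressor of E-cadherin, was 2.02-fold lower (adjusted p = 0.0444). Msgn1, Snai1 and Fgfr1 lost their calls without replicate 1 of part 1, as did Snai1 without replicate 2, and Fgfr1 without replicate 3. Lef1 and Snai1 lost their calls without replicate 1 of part 7, as did Msgn1, Snai1 and Fgfr1 without replicate 2, and Snai1 without replicate 3. Lef1 then had an adjusted p of up to 0.0815, Msgn1 of up to 0.0854, Snai1 of up to 0.175 and Fgfr1 of up to 0.0892.

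Wnt ligands and their modulators were divided. Of 12 Wnt ligands that passed the filter, 5 were lower, 1 higher and 6 not called (median -0.31). Wnt3a, which maintains axial progenitors, read 7.49, 8.16 and 7.56 in part 1 and 4.46, 4.75 and 4.65 in part 7, with all arrays of part 7 near the floor of the scale, and was 8.66-fold lower (-3.11 ± 0.25, adjusted p = 4.37e-08). Wnt5a, a ligand of the noncanonical branch, read 10.47, 10.69 and 10.28 in part 1 and 6.80, 8.06 and 6.95 in part 7. It was 9.26-fold lower (-3.21 ± 0.30). Wnt5b was lower by 5.95-fold, Wnt10a by 2.28-fold and Wnt11 by 1.61-fold, and Wnt16 was 2.97-fold higher (1.57 ± 0.25, adjusted p = 0.000207). Among 14 secreted modulators, 5 were lower and 3 higher (median 0.02). The antagonist Dkk1 read 9.14, 8.86 and 7.44 in part 1 and 4.57, 4.54 and 4.41 in part 7. It was 15.7-fold lower (-3.97 ± 0.39, adjusted p = 5.71e-07), beside falls of Rspo3 (above), Dkk2 (-1.80), Frzb (-1.22) and Notum (-0.93), a hydrolase that inactivates Wnt proteins. Higher in part 7 were Cer1 (4.10 ± 0.45), an inhibitor of Nodal, BMP and Wnt, Wif1 (1.15 ± 0.23) and Sfrp4 (0.98 ± 0.23), which bind Wnt proteins. Of 13 Wnt targets and feedback genes, 5 were lower (Cdx4, Nkd2, Sp5, Apcdd1 and Lef1), 0 higher and 8 not called (median -0.54). Axin2, a direct target used as a readout of the pathway, read 8.47, 9.04 and 7.90 in part 1 and 7.49, 8.58 and 7.53 in part 7. The groups overlapped (-0.60 ± 0.29, adjusted p = 0.184), though without replicate 2 of part 7 it was called lower (-0.96, adjusted p = 0.0255). Frzb lost its call without replicate 1 of part 1, as did Wnt11 and Notum without replicate 2, and Notum without replicate 3. Frzb, Notum and Lef1 lost their calls without replicate 1 of part 7, as did Frzb and Notum without replicate 2. Wnt11 then had an adjusted p of up to 0.0803, Frzb of up to 0.094, Notum of up to 0.0909 and Lef1 of up to 0.0815. The modulators lower numbered 3 without replicate 1 or replicate 2 of part 7. The median of the modulators lay between -0.06 and 0.12 without single arrays.

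Most FGF ligands were lower in part 7, and Fgf18, Fgfr1, Fgfr2 and Shisa2 were higher. Of 10 ligands that passed the filter, 6 were lower and 1 higher (median -1.73), while of 7 receptors and Shisa genes 0 were lower, 3 higher and 4 not called (median 0.54). The share called was 70% of the ligands and 58.3% of the FGF targets below, against 13.4% of all genes. Fgf17, a ligand of the same subfamily as Fgf8, read 7.01, 9.07 and 7.95 in part 1 and 4.01, 4.28 and 4.03 in part 7. Fgf15, another ligand of the caudal embryo, read 8.17, 8.80 and 8.47 in part 1 and 4.46, 4.91 and 4.55 in part 7. Every array of part 7 lay below every array of part 1 in both, with falls of 15-fold (adjusted p = 2.29e-05) and 14.3-fold (adjusted p = 2.27e-09). Fgf3 and Fgf4 were 13.3-fold and 10.9-fold lower (-3.73 ± 0.41 and -3.45 ± 0.24). Fgf8, the ligand whose gradient is best known in the PSM, read 5.14, 6.20 and 6.63 in part 1 and 4.54, 4.04 and 4.43 in part 7, a modest signal in part 1 and near the floor in part 7, and was 3.15-fold lower (-1.65 ± 0.28, adjusted p = 0.000439). Fgf9 was 3.48-fold lower. Fgf18 was the exception, with 4.13, 4.65 and 5.26 in part 1 and 8.19, 9.60 and 8.03 in part 7, 15.2-fold higher in part 7 (3.93 ± 0.40, adjusted p = 9.95e-07). The receptor Fgfr2 read 6.13, 5.66 and 5.85 in part 1 and 8.01, 8.76 and 8.28 in part 7. It was 5.55-fold higher (2.47 ± 0.19), Fgfr1 was 2.43-fold higher (1.28 ± 0.35), and Shisa2, which retains FGF and Wnt receptors in the endoplasmic reticulum, 2.11-fold higher (1.08 ± 0.33). Fgfr3, Fgfr4 and Fgfrl1 were not called. Of 12 FGF targets and feedback genes 6 were lower and 1 higher (median -0.92): Il17rd, an inhibitor of the pathway, by 7.06-fold (-2.82 ± 0.40, adjusted p = 6.16e-05), then Dusp4, Spry4, Etv5, Spred2 and Etv4, with falls from -2.07 to -0.89, whereas Spry1 was 1.52-fold higher. Dusp6, a phosphatase that acts on ERK, read 8.5, 8.64 and 9.15 in part 1 and 7.72, 7.70 and 8.02 in part 7 without overlap and missed the threshold (-0.95 ± 0.36, adjusted p = 0.086). Spry4, Fgfr1 and Spry1 lost their calls without replicate 1 of part 1, as did Dusp4, Spry4, Etv4 and Shisa2 without replicate 2, and Dusp4, Etv4, Shisa2 and Fgfr1 without replicate 3. Dusp4, Spry4, Etv4, Shisa2 and Spry1 lost their calls without replicate 1 of part 7, as did Dusp4, Etv5, Etv4 and Fgfr1 without replicate 2, and Spry4 and Shisa2 without replicate 3. Dusp4 then had an adjusted p of up to 0.128, Spry4 of up to 0.114, Etv5 of up to 0.0531, Etv4 of up to 0.106, Shisa2 of up to 0.14, Fgfr1 of up to 0.0892 and Spry1 of up to 0.0618. The receptors higher numbered 1 without replicate 3 of part 1, and the number of targets lower fell to 3 without replicate 2 of part 1, replicate 1 of part 7 or replicate 2 of part 7.

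Among 28 Hox genes that passed the filter, 15 were lower in part 7, 1 was higher and 12 were not called. Of all genes 7.29% were lower and 6.10% higher. The 6 genes of groups 10 to 13 that passed the filter were all lower, between -4.53 and -2.25, and the 4 genes of group 9 were not called, between -0.24 and 0.30. Hoxd13, the last gene of its cluster, read 10.72, 9.91 and 9.77 in part 1 and 5.02, 7.04 and 4.77 in part 7. Replicate 2 was about 2 units above the other arrays of part 7 and still far below part 1. The fall was 23.0-fold (-4.53 ± 0.56, adjusted p = 1.26e-05). Hoxd10 read 9.85, 9.98 and 9.57 in part 1 and 6.93, 7.82 and 5.49 in part 7. It was 8.31-fold lower (adjusted p = 8.01e-05), and Hoxd11, Hoxa11, Hoxc10 and Hoxa10 were lower by 6.28-fold, 6.04-fold, 5.04-fold and 4.76-fold. Each of these 6 was also called without any single array. By contrast Hoxa9 read 11.39, 11.76 and 11.97 in part 1 and 11.38, 11.37 and 11.74 in part 7, with overlapping groups (-0.21 ± 0.18, 95% confidence interval -0.59 to 0.17), and Hoxd9 8.64, 9.24 and 8.87 in part 1 and 9.33, 8.98 and 9.34 in part 7 (0.30 ± 0.19, 95% confidence interval -0.09 to 0.70).

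Of the 18 genes of groups 1 to 8, 9 were lower and 1 higher, with a median of -0.70. Hoxb1 read 10.87, 11.24 and 10.99 in part 1 and 9.58, 10.13 and 9.40 in part 7. It was 2.52-fold lower (-1.33 ± 0.16, adjusted p = 1.17e-05). Hoxb3 read 9.46, 9.38 and 9.42 in part 1 and 7.92, 8.5 and 8.43 in part 7. It was 2.19-fold lower (adjusted p = 0.00255), and Hoxc5 was 2.42-fold lower (adjusted p = 0.000133) and Hoxa3 1.91-fold lower (adjusted p = 0.0025). Another probe set of Hoxb3 was called lower (-0.83). Other probe sets of Hoxa3 differed by -0.43, -0.26 and -0.41 (adjusted p = 0.409, 0.552 and 0.266 by limma), and none was called. Others of Hoxc5 (-0.48) and Hoxa4 (0.12, the other way) were not called either. The direction differed within group 5, where Hoxb5 was 1.70-fold higher (0.77 ± 0.25, adjusted p = 0.0455). Hoxc4, Hoxa4 and Hoxb5 lost their calls without replicate 1 of part 1, as did Hoxc4, Hoxc8, Hoxa7, Hoxa4 and Hoxd8 without replicate 2, and Hoxc4, Hoxc8, Hoxa7 and Hoxb5 without replicate 3. Hoxc4, Hoxc8 and Hoxd8 lost their calls without replicate 1 of part 7, as did Hoxc4, Hoxc8, Hoxa7, Hoxa4 and Hoxb5 without replicate 2, and Hoxb5 without replicate 3. Hoxc4 then had an adjusted p of up to 0.147, Hoxc8 of up to 0.077, Hoxa7 of up to 0.127, Hoxa4 of up to 0.0847, Hoxd8 of up to 0.0897 and Hoxb5 of up to 0.152. The genes of groups 5 to 8 called lower numbered 1 without replicate 2 of part 1 and 2 without replicate 3 of part 1 or replicate 1 or 2 of part 7, and those of groups 1 to 4 numbered 3 without replicate 1 or 2 of part 1 or replicate 2 of part 7. Of 7 genes for TALE cofactors, which bind DNA with Hox proteins, 4 were higher and 0 lower (median 0.73). Meis1 read 6.54, 5.33 and 6.15 in part 1 and 8.97, 9.26 and 9.19 in part 7. It was 8.78-fold higher (3.13 ± 0.29, adjusted p = 2.16e-07). Meis2 read 8.78, 6.89 and 8.17 in part 1 and 10.50, 10.55 and 10.49 in part 7 and was 5.95-fold higher (2.57 ± 0.30). Pbx3 was 2.79-fold higher and Pknox2 1.66-fold higher, the last with its call lost without replicate 2 of part 1 (adjusted p = 0.0624). Meis1, Meis2 and Pbx3 were all lowest in replicate 2 of part 1.

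**Figure D2:**
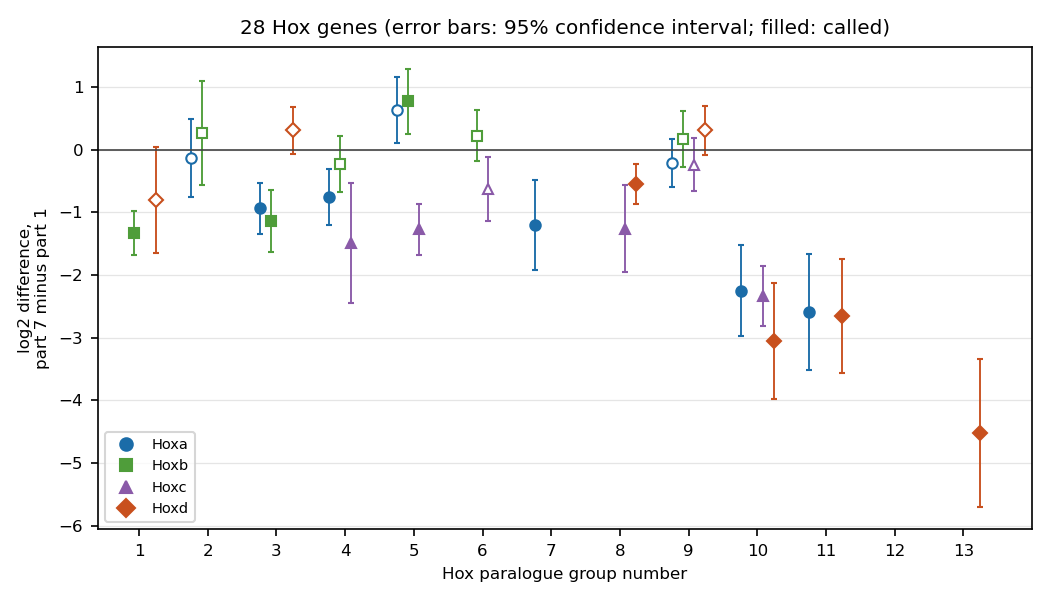
Log2 difference, part 7 minus part 1, of 28 Hox genes against their paralogue group number, with 95% confidence intervals, colours and symbols for the clusters and filled symbols for called genes. The 6 genes of groups 10 to 13 lie between -4.53 and -2.25, and the 4 genes of group 9 between -0.24 and 0.30.

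Somite genes were higher in part 7. Of 16 genes of somite differentiation that passed the filter, 13 were higher, against 6.10% of all genes, 1 was lower and 2 were not called, with a median of 2.69. Meox1, a homeobox gene needed for the somite to form dermomyotome and sclerotome, read 4.94, 4.96 and 5.97 in part 1 and 11.42, 11.67 and 11.11 in part 7. These groups were the farthest apart of all called genes, 69.1-fold (6.11 ± 0.39, adjusted p = 2.36e-09). Tcf15, a bHLH factor required for the epithelium of the somite, read 6.98, 7.00 and 7.50 in part 1 and 11.21, 11.17 and 10.59 in part 7. It was 14.2-fold higher (3.83 ± 0.28). Pax3, which marks the dermomyotome and muscle progenitors, read 6.94, 8.60 and 7.43 in part 1 and 10.18, 10.07 and 9.84 in part 7. It was 5.18-fold higher (2.37 ± 0.35), and Sim1, a bHLH-PAS factor of the lateral somite, was 9.99-fold higher (3.32 ± 0.21, adjusted p = 3.16e-09). Meox2, a relative of Meox1, read 4.56, 4.34 and 4.40 in part 1 and 9.63, 7.70 and 9.19 in part 7. Eya1, a coactivator in muscle progenitors, read 4.80, 4.61 and 5.93 in part 1 and 8.88, 7.88 and 9.33 in part 7. The activin antagonist Fst read 4.98, 5.01 and 5.11 in part 1 and 8.18, 6.92 and 9.03 in part 7. In all 3 of these genes replicate 2 was the lowest of part 7 but stayed above part 1 (21.2-fold, 12-fold and 8.05-fold higher). Myf5, the first muscle determination factor of the somite, read 4.67, 4.18 and 4.25 in part 1 and 7.42, 4.24 and 7.78 in part 7, so that replicate 2 of part 7 lay at the level of part 1 (2.11 ± 0.58, adjusted p = 0.0191). The SOXD gene Sox6 was 14.8-fold higher (3.89 ± 0.28) and Twist1, a bHLH factor of mesenchyme, 8.10-fold higher (3.02 ± 0.49). Foxd1 (1.69), Sox5 (0.85) and Sox9 (0.80), a factor of sclerotome and cartilage, were higher at lower folds. Mef2c, a cofactor of the myogenic factors, was 1.88-fold lower (adjusted p = 0.0305). Mef2c, Sox5 and Sox9 lost their calls without replicate 1 of part 1, as did Myf5 and Sox5 without replicate 2, and Mef2c, Myf5, Sox5 and Sox9 without replicate 3. Mef2c, Myf5 and Sox5 lost their calls without replicate 1 of part 7, as did Mef2c and Sox5 without replicate 2, and Mef2c, Myf5 and Sox9 without replicate 3. Mef2c then had an adjusted p of up to 0.134, Myf5 of up to 0.119, Sox5 of up to 0.212 and Sox9 of up to 0.0796. Of the 22 genes in the list 20 had a probe set, and Pax1, Pax7, Nkx3-2 and Eya2 were among those without one or under the filter on low signal.

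Genes of the segment boundary were higher in part 7 or not called. Of 14 that passed the filter 7 were higher, 0 lower and 7 not called (median 2.05). Uncx, which marks the caudal compartment of a somite, read 4.06, 4.06 and 4.07 in part 1 and 9.38, 8.98 and 8.60 in part 7, with part 1 at the floor of the scale, and was 30.4-fold higher (4.93 ± 0.35, adjusted p = 1.06e-08). Foxc2 and Foxc1, forkhead factors of paraxial mesoderm, were 23.2-fold and 4.22-fold higher (4.54 ± 0.28 and 2.08 ± 0.30). Tbx18, a T-box gene of the rostral compartment, was 11.3-fold higher, and Dmrt2, needed for the dermomyotome, 11.7-fold higher. Efnb2, a ligand at the new boundary, read 5.86, 5.97 and 6.40 in part 1 and 8.47, 10.45 and 8.85 in part 7. It was 9.05-fold higher (adjusted p = 0.00050). Cer1 read 4.19, 4.13 and 5.21 in part 1 and 7.79, 9.66 and 8.38 in part 7. It was 17.2-fold higher (adjusted p = 2.36e-06). In these last 2 genes replicate 2 of part 7 was the highest array.

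Replicate 2 of part 7 also stood apart in boundary genes that were not called. Ripply2, a repressor that ends Tbx6 activity at the boundary, read 4.34, 4.34 and 4.93 in part 1 and 4.88, 9.87 and 4.52 in part 7, high in replicate 2 of part 7 and near the floor in the other 5 arrays (1.89 ± 1.09, adjusted p = 0.285). Mesp2, the factor that places the boundary, read 4.49, 4.48 and 4.78 in part 1 and 4.69, 6.13 and 4.70 in part 7 (0.59 ± 0.71, adjusted p = 0.651). Hes5, a Notch target, read 4.07, 5.74 and 5.39 in part 1 and 4.82, 8.22 and 4.60 in part 7, and Pcdh8, an adhesion protein of the forming boundary, 9.36, 4.99 and 9.31 in part 1 and 9.21, 12.01 and 8.53 in part 7. Neither was called (adjusted p = 0.633 and 0.116), though without replicate 3 of part 1 Pcdh8 was higher (2.74, adjusted p = 0.0494). Lfng, a glycosyltransferase that modifies Notch in the clock, read 5.21, 5.31 and 6.10 in part 1 and 4.93, 6.41 and 4.67 in part 7 (-0.21 ± 0.44, adjusted p = 0.815). Epha4, a receptor of the rostral boundary, read 9.82, 10.17 and 9.13 in part 1 and 7.68, 9.68 and 7.41 in part 7. It was not called (-1.45 ± 0.50, adjusted p = 0.0611), though without replicate 2 of part 7 it fell by 2.16 (adjusted p = 0.00262) and without replicate 3 of part 1 by 1.74 (adjusted p = 0.0483). Of the 4 other probe sets of Epha4, 3 were called lower. In all, 8 of the 14 boundary genes and 7 of 22 Notch pathway genes lay more than 1 unit above both other arrays of part 7 in replicate 2, while Meox2, Eya1, Myf5 and Fst lay as far below them. Without that array the list's count remained at 7 higher and its median became 1.47.

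**Figure D3:**
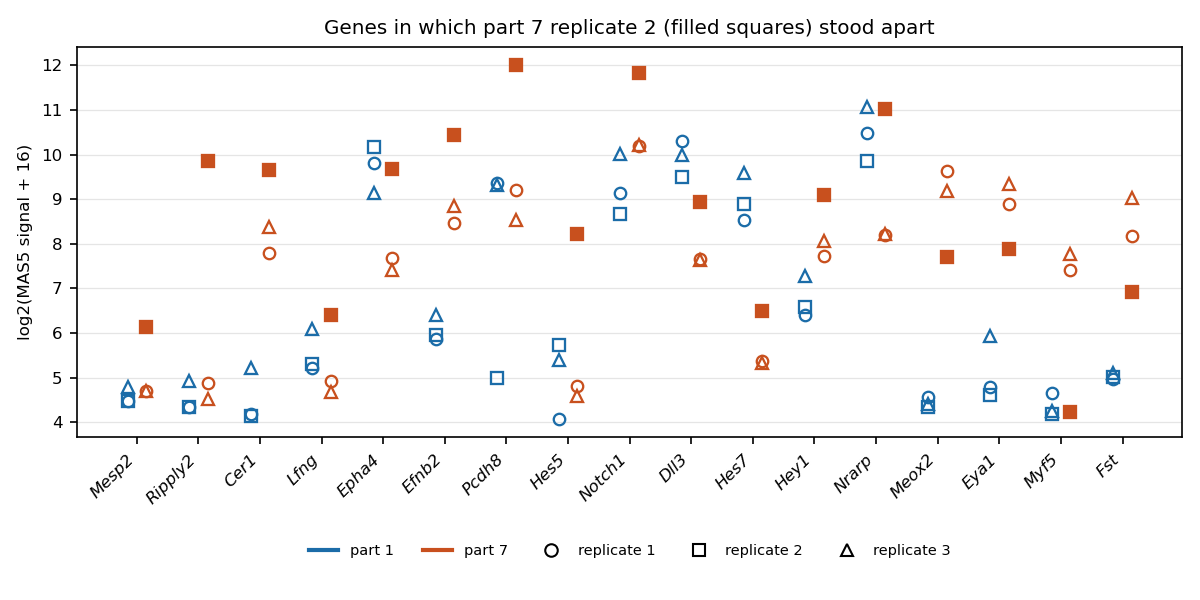
Log2(MAS5 signal + 16) in each of the 6 arrays of the boundary, Notch and somite genes for which replicate 2 of part 7 (filled orange squares) lay more than 1 unit from both other arrays of part 7, with part 1 in blue. Ripply2 reads 9.87 in that array and between 4.34 and 4.93 in the other 5.

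Notch pathway genes were called in both directions, 4 higher and 4 lower of 22 that passed the filter, with a median of -0.14. Hes7, the repressor at the core of the clock, read 8.54, 8.88 and 9.59 in part 1 and 5.38, 6.50 and 5.33 in part 7. It was 9.64-fold lower (-3.27 ± 0.44, adjusted p = 3.54e-05). Dll3, a ligand-like modulator of the PSM, read 10.31, 9.50 and 9.99 in part 1 and 7.66, 8.93 and 7.63 in part 7. It was 3.63-fold lower (-1.86 ± 0.27). In both genes replicate 2 was the highest of part 7 but lay under part 1. The receptor gene Notch4, best known from endothelium, was 4.74-fold lower (-2.24 ± 0.25, adjusted p = 3.24e-06), with 7.88, 8.57 and 7.73 in part 1 and 5.84, 6.13 and 5.49 in part 7. The receptors Notch1 and Notch2 were higher: Notch1 read 9.15, 8.68 and 10.01 in part 1 and 10.19, 11.84 and 10.22 in part 7 (2.77-fold, adjusted p = 0.00518) and Notch2 8.70, 9.11 and 9.15 in part 1 and 10.16, 10.62 and 10.23 in part 7 (2.55-fold, adjusted p = 8.54e-05). The effector genes Heyl and Hey1 were 3.22-fold and 2.92-fold higher (1.69 ± 0.26 and 1.54 ± 0.37). Hes1 and the feedback gene Nrarp were not called (adjusted p = 0.229 and 0.0775). Nrarp read 10.49, 9.85 and 11.06 in part 1 and 8.20, 11.02 and 8.21 in part 7, with replicate 2 of part 7 at the level of part 1. Without that array it was called lower (-2.26, adjusted p = 7.29e-06). Each of the 8 calls was also made without any single array.

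Hedgehog pathway genes were higher where they were called, 5 of 8, with 0 lower and a median of 0.88. That is 62.5%, where 6.10% of all genes were higher. The transcription factor Gli2 read 6.47, 6.99 and 6.77 in part 1 and 9.51, 9.57 and 9.58 in part 7, tight in both groups, and was 7.00-fold higher (2.81 ± 0.19, adjusted p = 5.5e-09). The coreceptors Gas1 and Boc, which bind Hedgehog ligands, were 3.11-fold and 2.94-fold higher (1.64 ± 0.31 and 1.56 ± 0.19), and the coreceptor Cdon 1.53-fold higher. Gli1, a direct target of the pathway, was 2.21-fold higher (1.15 ± 0.32, adjusted p = 0.0207) and Ptch1, the receptor and also a target, read 9.47, 9.07 and 10.03 in part 1 and 8.89, 9.49 and 10.75 in part 7, with overlapping groups (0.18 ± 0.49, adjusted p = 0.858). Gli1 lost its call without replicate 1 or 2 of part 1 or replicate 3 of part 7 (adjusted p up to 0.111). Cdon lost its call without replicate 1 of part 1 or replicate 1 or 3 of part 7 (adjusted p up to 0.0775). Of 23 BMP and TGF beta genes 3 were higher and 5 lower (median -0.03). Fst (above) was the largest rise. Bambi, a decoy receptor, was 2.62-fold lower (-1.39 ± 0.20, adjusted p = 7.59e-05), and the BMP targets Msx1 and Msx2 were both 2.58-fold lower with overlap between the groups. Msx1 read 6.14, 8.53 and 6.83 in part 1 and 6.26, 5.47 and 5.67 in part 7, highest in replicate 2 of part 1. Id4 was 2.04-fold and Lefty1 1.70-fold lower, and Bmp5 1.80-fold and Tgfb3 2.02-fold higher. Bmp4, Bmp7 and Id1 were not called (adjusted p = 0.25, 0.0649 and 0.11), though Bmp7 was higher without replicate 3 of part 1 (0.74, adjusted p = 0.0441). Only Bambi and Fst of these 8 were called without each single array in turn. Msx2, Lefty1, Bmp5 and Tgfb3 lost their calls without replicate 1 of part 1, as did Msx1, Msx2, Id4 and Bmp5 without replicate 2, and Tgfb3 without replicate 3. Id4, Bmp5 and Tgfb3 lost their calls without replicate 1 of part 7, as did Msx1 and Lefty1 without replicate 2, and Msx1, Lefty1, Bmp5 and Tgfb3 without replicate 3. Msx1 then had an adjusted p of up to 0.164, Msx2 of up to 0.0583, Id4 of up to 0.0816, Lefty1 of up to 0.0785, Bmp5 of up to 0.0888 and Tgfb3 of up to 0.125. The Hedgehog genes higher numbered 3 without replicate 1 of part 1 or replicate 3 of part 7. Of the BMP and TGF beta genes, those higher numbered 1 without replicate 1 of part 1 or replicate 1 or 3 of part 7, and those lower 2 without replicate 2 of part 1 and 3 without replicate 1 of part 1 or replicate 2 or 3 of part 7. Their median was 0.07 without replicate 2 of part 1 and 0.04 without replicate 2 of part 7.

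**Figure D4:**
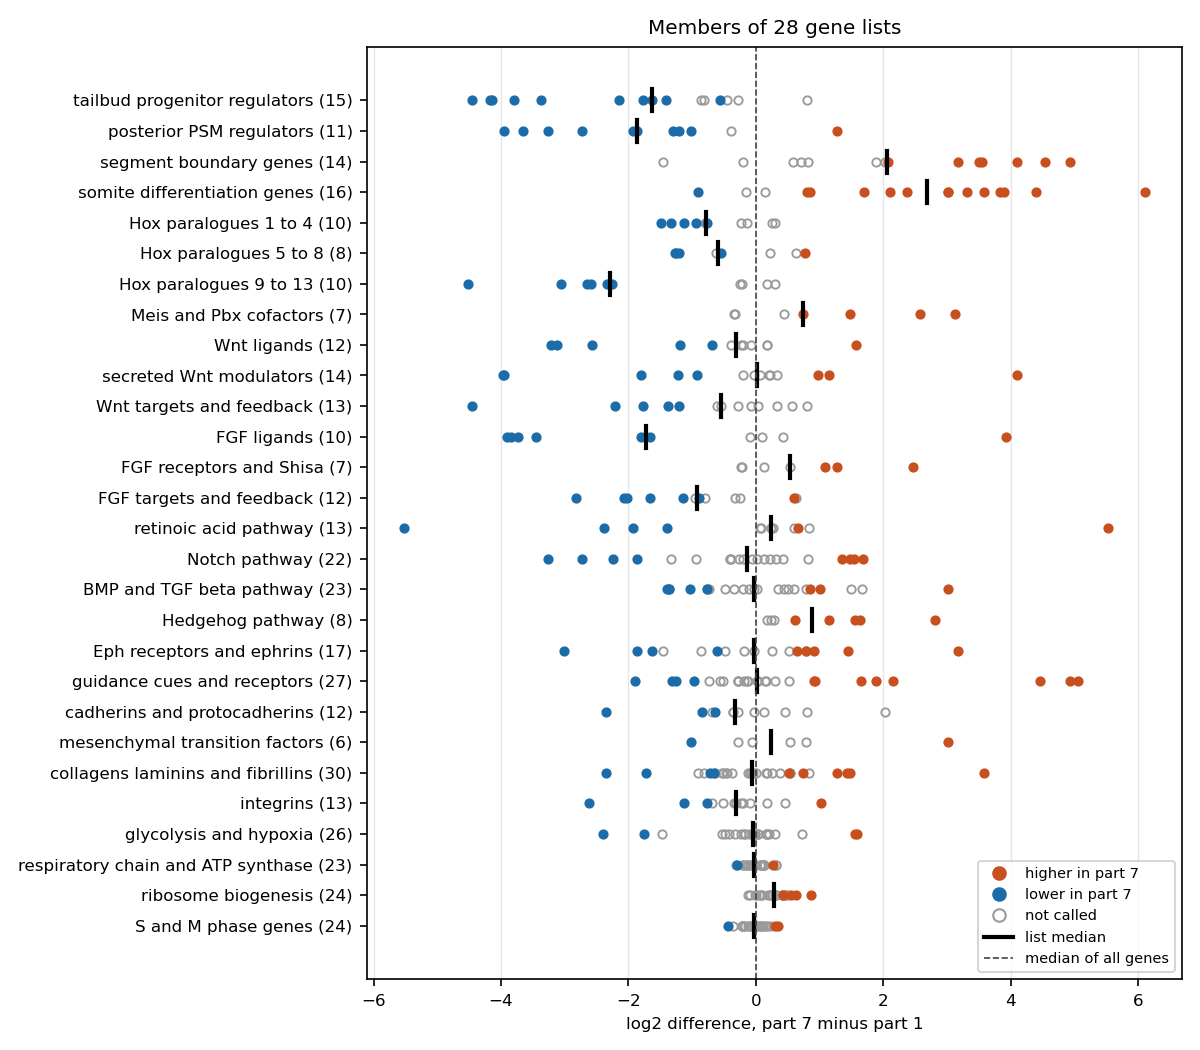
Log2 difference, part 7 minus part 1, of each member that passed the filter in 28 gene lists, whose number of members is in parentheses, with called genes filled, list medians as black bars and the median of all genes as a dashed line. List medians run from -2.29 for Hox paralogues 9 to 13 to 2.69 for somite differentiation genes, and those of the S and M phase, respiratory chain and glycolysis genes lie within 0.04 of 0.

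Among 27 guidance cues and receptors 8 were higher and 4 lower (median 0.02), with some of the largest rises of all genes. The chemokine Cxcl12 read 5.43, 4.35 and 5.24 in part 1 and 9.68, 10.31 and 10.17 in part 7. It was 33.2-fold higher (5.05 ± 0.26, adjusted p = 2.45e-10). Its receptor gene Cxcr4 was not called (-0.73 ± 0.42, adjusted p = 0.28). Met, the receptor of hepatocyte growth factor used by migrating muscle progenitors, read 4.29, 4.42 and 5.47 in part 1 and 9.50, 9.88 and 9.60 in part 7. It was 30.5-fold higher (adjusted p = 1.8e-08), and its ligand Hgf stayed near the floor in all 6 arrays (-0.18, not called). Netrin 1, Ntn1, read 4.72, 4.07 and 4.82 in part 1 and 8.90, 8.98 and 9.13 in part 7. It was 22.1-fold higher, while the netrin receptors Unc5b and Unc5c were 3.72-fold and 2.39-fold lower. Slit1 was 3.15-fold higher (1.65 ± 0.24), and Slit2 and Slit3 were lower (-0.97 and -1.32). The semaphorins Sema3c and Sema3f (1.89 and 0.93) and their receptors Nrp1 and Nrp2 (2.15 and 0.92) were higher. Nrp1 and Nrp2 lost their calls without replicate 1 of part 1, as did Slit2, Nrp1 and Nrp2 without replicate 2, and Slit2 and Nrp2 without replicate 3. Slit2, Nrp1, Sema3f and Nrp2 lost their calls without replicate 1 of part 7, as did Nrp2 without replicate 2, and Nrp1 without replicate 3. Slit2 then had an adjusted p of up to 0.0795, Nrp1 of up to 0.0887, Sema3f of up to 0.0655 and Nrp2 of up to 0.16. Of the guidance genes 5 were higher without replicate 1 of part 7. The median lay between -0.16 and 0.13 without single arrays. Of 17 Eph receptors and ephrins 5 were higher and 4 lower (median -0.03). Epha1 read 6.73, 7.72 and 7.37 in part 1 and 4.34, 4.32 and 4.10 in part 7. It was 8.11-fold lower (-3.02 ± 0.30, adjusted p = 5.71e-07); Epha5, Efna1 and Ephb4 were also lower (-1.86, -1.63 and -0.61). Higher beside Efnb2 were Epha7 (1.45), Ephb3 (0.91), Efna5 (0.78) and Ephb1 (0.65). Ephb3 lost its call without replicate 1 of part 1, as did Ephb1 without replicate 2, and Epha7 and Ephb1 without replicate 3. Epha7 and Ephb1 lost their calls without replicate 1 of part 7, as did Epha7 and Ephb1 without replicate 3. Epha7 then had an adjusted p of up to 0.175, Ephb3 of up to 0.0561 and Ephb1 of up to 0.171. Of the Eph and ephrin genes 3 were higher without replicate 3 of part 1 or replicate 1 of part 7. Their median lay between -0.14 and 0.21 without single arrays.

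Adhesion and matrix genes differed in single members. Of 12 cadherins and protocadherins 0 were higher and 3 lower (median -0.32), where 6.10% of all genes were higher and 7.29% lower. Cdh6, a type II cadherin, read 6.05, 7.49 and 6.72 in part 1 and 4.68, 4.24 and 4.28 in part 7. It was 5.10-fold lower (adjusted p = 3.27e-06), Pcdh7 was 1.80-fold lower and N-cadherin, Cdh2, 1.57-fold lower (-0.65 ± 0.15). Of 30 collagens, laminins and fibrillins 6 were higher and 4 lower (median -0.06). Fibrillin 2, Fbn2, read 8.21, 7.46 and 8.59 in part 1 and 11.69, 11.66 and 11.64 in part 7. It was 11.9-fold higher (3.58 ± 0.21, adjusted p = 1.74e-09). The basement membrane genes Col4a1, Col4a2 and Nid2 were 2.70-fold, 2.78-fold and 1.68-fold higher, and Col9a1 and Lamb1 2.42-fold and 1.43-fold higher. Fbln2 was 5.11-fold lower, Col1a2 3.32-fold lower, and Col11a1 and Lamc1 lower by 1.64-fold and 1.57-fold. Col11a1 and Lamb1 lost their calls without replicate 1 of part 1, as did Col11a1 and Lamc1 without replicate 2. Lamc1 lost its call without replicate 1 of part 7, as did Col11a1, Lamc1 and Lamb1 without replicate 2, and Col11a1 without replicate 3. Col11a1 then had an adjusted p of up to 0.168, Lamc1 of up to 0.131 and Lamb1 of up to 0.0592. Of the matrix genes 2 were lower without replicate 2 of part 1. Fibronectin, Fn1, read 11.53, 11.38 and 11.48 in part 1 and 11.19, 11.43 and 11.50 in part 7. It was not called (-0.09 ± 0.09, 95% confidence interval -0.27 to 0.09). Of 13 integrin genes Itgb8 (-2.61), Itgav (-1.12) and Itga1 (-0.77) were lower and Itga9 higher (1.03). Itgb8 and Itgav encode chains of a receptor that activates TGF beta. Itga1 lost its call without replicate 1 or 3 of part 1 or replicate 1, 2 or 3 of part 7 (adjusted p up to 0.135). Among 6 factors of mesenchymal transition, Twist1 was higher and Snai1 lower (both above), the latter with the limits given there.

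Genes of basic metabolism and division were called about as often as genes in general. Of 24 S and M phase genes 2 were higher and 1 lower, with a median of -0.03, of 23 respiratory chain genes 1 was higher and 1 lower (median -0.03), and of 26 glycolysis and hypoxia genes 2 were higher and 2 lower (median -0.04), that is 12.5%, 8.70% and 15.4% of the members against 13.4% of all genes. Those called in division were Cdt1 (0.35), Rrm2 (0.30) and Mki67 (-0.44), and in the respiratory chain Cyc1 (0.26) and Atp5c1 (-0.30). Cdt1, Rrm2, Mki67 and Atp5c1 lost their calls without replicate 1 of part 1, as did Cyc1 without replicate 2, and Atp5c1 without replicate 3. Mki67 and Cyc1 lost their calls without replicate 1 of part 7, as did Atp5c1 without replicate 2, and Cdt1, Rrm2 and Atp5c1 without replicate 3. Cdt1 then had an adjusted p of up to 0.076, Rrm2 of up to 0.0812, Mki67 of up to 0.0779, Cyc1 of up to 0.0751 and Atp5c1 of up to 0.0821. In glycolysis the glucose transporter Slc2a3 read 10.49, 11.84 and 12.09 in part 1 and 9.34, 8.52 and 9.35 in part 7. It was 5.28-fold lower (-2.40 ± 0.40, adjusted p = 0.00034), beside Egln3 (3.37-fold lower), a hydroxylase of hypoxia-inducible factor, while Aldoc and Ndrg1 were 3.01-fold and 2.93-fold higher. The enzymes Ldha, Pgk1, Aldoa and Tpi1 differed by at most 0.24, and none was called. Of 24 genes of ribosome biogenesis 4 were higher (Nop2, Bop1, Rrp9 and Polr1a, 0.87 to 0.43), 0 lower and 20 not called. The median of the list was 0.28, and 16.7% of its members were called, against 13.4% of all genes. Another probe set of Bop1 differed by -0.013 (adjusted p = 0.983) and was not called. Other probe sets of Polr1a differed by 0.012 (adjusted p = 0.985) and 0.55 (adjusted p = 0.121), also not called. With signals averaged over their probe sets, Bop1 and Polr1a lost their calls. Bop1, Rrp9 and Polr1a lost their calls without replicate 2 of part 1, as did Rrp9 and Polr1a without replicate 3. Bop1, Rrp9 and Polr1a lost their calls without replicate 1 of part 7, as did Rrp9 and Polr1a without replicate 3. Bop1 then had an adjusted p of up to 0.099, Rrp9 of up to 0.0958 and Polr1a of up to 0.176. Those higher numbered 1 without replicate 2 of part 1 or replicate 1 of part 7 and 2 without replicate 3 of part 7, and at an unadjusted p under 0.05 12 of the 24 were higher and 0 lower, where 13% of all genes were higher and 13.9% lower.

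Several of the largest differences lay outside the lists. Gad1, which makes the transmitter GABA, read 9.31, 9.74 and 9.65 in part 1 and 4.58, 5.49 and 4.37 in part 7. It was 26.9-fold lower in part 7 (-4.75 ± 0.38, adjusted p = 3.99e-08). Another probe set of the gene differed by -0.56 (adjusted p = 0.0543). Stk26, a kinase, read 9.68, 9.33 and 9.18 in part 1 and 4.48, 6.57 and 5.78 in part 7. It was 13.8-fold lower. Adamtsl2, a matrix protein that binds fibrillin, read 8.06, 8.85 and 8.02 in part 1 and 4.20, 4.60 and 4.79 in part 7 (13.7-fold lower). All 3 genes were called with no overlap between the groups. Stum, higher in part 7, read 4.45, 4.05 and 4.37 in part 1 and 8.72, 8.82 and 8.65 in part 7 and had the smallest SE of the 30 genes (4.44 ± 0.17, adjusted p = 1.72e-12). Pgm5, a protein of adherens junctions, read 4.36, 4.03 and 4.11 in part 1 and 8.78, 8.25 and 8.71 in part 7 (21.3-fold higher). The matrix protein vitronectin, Vtn, read 4.05, 4.18 and 4.12 in part 1 and 8.91, 8.07 and 8.22 in part 7 (19.5-fold higher). Part 1 was near the floor of the scale in all 3. Arg1, an enzyme of the urea cycle, read 5.95, 7.34 and 6.83 in part 1 and 10.77, 10.94 and 11.10 in part 7. It was 18.7-fold higher (4.23 ± 0.37, adjusted p = 1.22e-07). Prrx2, another homeobox gene, read 4.30, 4.60 and 4.98 in part 1 and 9.61, 8.62 and 9.19 in part 7 (22.8-fold higher). The orphan nuclear receptor Nr2f1 read 4.01, 4.04 and 4.59 in part 1 and 8.31, 7.58 and 9.44 in part 7 (18.8-fold higher), in part 7 lowest in replicate 2. Another probe set of Vtn gave 2.13, of Stk26 -0.90, of Rspo3 -1.77 and of Cer1 1.37, each called in the same direction at a smaller size. Of the 1625 called genes 829 had another probe set past the filter. All others pointed the same way in 720, at least 1 pointed the other way in 109, and none was called the other way. In 360 at least 1 other was called the same way. Not called were, among others, those of Fgfr1 (0.52 and 0.70), Spred2 (-0.72, -0.70 and -0.17) and Atp5c1 (0.17, the other way). Of the genes named by the rule given below, Atp5c1, Bop1, Cdon, Epha7, Hoxa4, Itga1, Itgav, Polr1a, Rrm2 and Slit2 lost their calls with averaged probe sets.

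The levels in parts 2 to 6 showed where the ends parted, as a description of means with no test. Of the 263 genes more than 2-fold higher in part 7, the mean first passed the midpoint of the end means in part 2 in 37, in part 3 in 46, in part 4 in 41, in part 5 in 63, in part 6 in 61 and only in part 7 in 15. Of the 408 more than 2-fold lower, the same counts were 100, 95, 93, 74, 44 and 2. Cyp26a1 fell from 10.64 in part 1 to 6.81 in part 2 and 5.06 in part 3, and Mixl1 from 8.16 to 6.10 and 5.56. Rspo3 declined from 11.49 in part 1 to 10.44 in part 3, 8.76 in part 5 and 7.09 in part 6, with 7.53 in part 7, and Tbx6 and Hes7 passed the midpoint only in part 6. In the other direction Foxc2 had passed it in part 2 (8.72, from 6.14), Meox1, Aldh1a2, Cxcl12, Met and Ntn1 in part 3, Uncx, Stum, Pgm5, Meox2, Prrx2 and Cer1 in part 5, and Vtn in part 6. The means of parts 2 to 6 all lay between those of the ends in 90 of the 263 and in 131 of the 408.

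**Figure D5:**
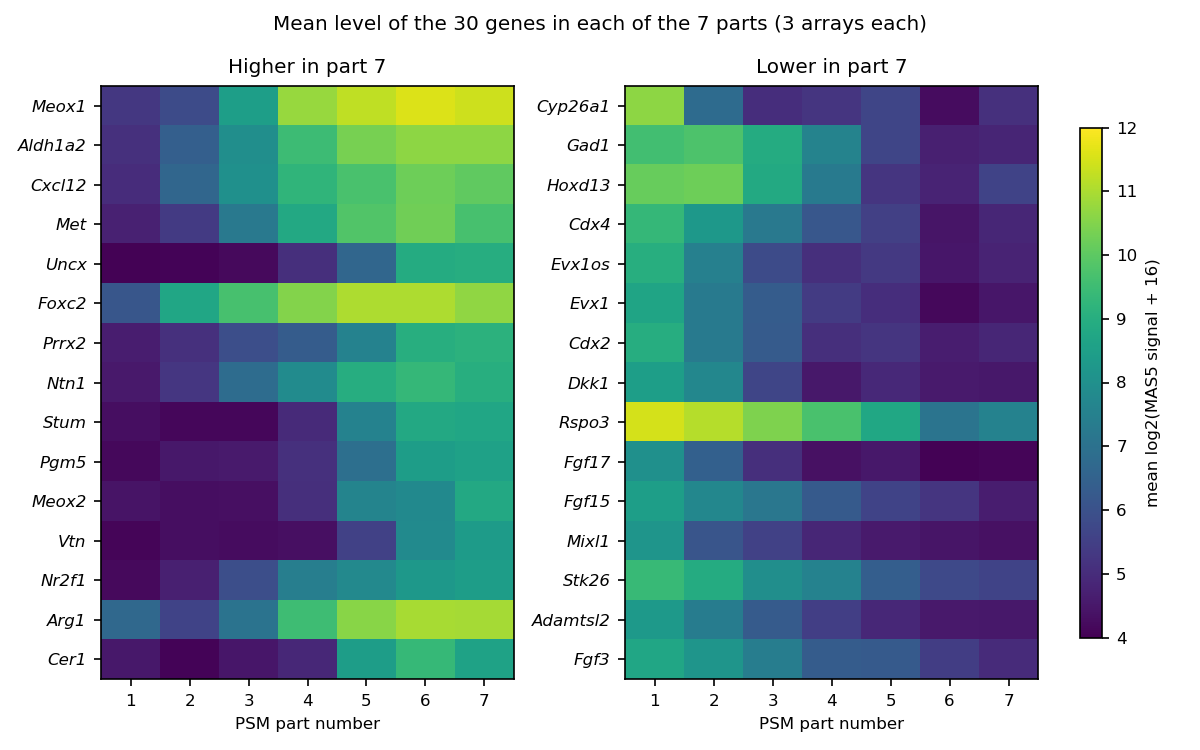
Mean log2(MAS5 signal + 16) over 3 arrays in each of the 7 parts for the 15 genes with the largest called difference each way. Cyp26a1 is highest in part 1, at 10.64, and Uncx in parts 6 and 7, at 8.93 and 8.99, while Rspo3 declines over most parts.

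Markers of other tissues and of stress were checked in the same arrays. Among other tissues, the dissection was meant to remove ectoderm, endoderm and lateral plate. Blood genes had a summed signal of 10768 to 18611 in part 1 and 6590 to 12397 in part 7, and 2 of 9 were lower in part 7, Hba-x (-2.56 ± 0.75, adjusted p = 0.0284) and Klf1 (-1.61 ± 0.52, adjusted p = 0.0464). All 9 differences were negative, between -2.56 and -0.19, with a median of -1.15. At an unadjusted p under 0.05 by limma 7 of the 9 were lower and 0 higher, where 13.9% of all genes were lower. Hba-x read 11.83, 8.75 and 10.31 in part 1 and 7.18, 9.28 and 6.76 in part 7. The groups overlapped in Hba-x through replicate 2 of each part. Replicate 1 of part 1 lay more than 1 unit above both other arrays of its part in 7 blood genes, and 0 of the 9 were called without it or without replicate 1 or 3 of part 7. By contrast 7 were called lower without replicate 2 of part 1, 4 without replicate 2 of part 7 and 1 without replicate 3 of part 1. Endothelial genes summed to 155 to 1055 in part 1 and 157 to 600.1 in part 7; replicate 2 of part 1 was low in 8 of them, and of 14 only Etv2 was called (-0.74 ± 0.17). Gut endoderm genes summed to 228 to 1171 in part 1 and 74.9 to 372 in part 7, with Krt8 (-1.34) and Krt19 (-1.16) lower of 9. All 9 differences were negative, between -1.34 and -0.04, with a median of -0.70. At an unadjusted p under 0.05 by limma 3 were lower and 0 higher. Cldn6 was called lower by limma without replicate 1 of part 1 (-1.04, adjusted p = 0.00649) or replicate 3 of part 7 (-0.97, adjusted p = 0.0201). Krt8 lost its call without replicate 2 or 3 of part 1 or replicate 1 or 2 of part 7 (adjusted p up to 0.159). Krt19 lost its call without replicate 2 or 3 of part 1 or replicate 1 of part 7 (adjusted p up to 0.0954). Of the 13 genes in that list 12 had a probe set, and Foxa2, Trh, Spink3 and Cldn4 were not kept. Its member Ttr read 4.05, 4.02 and 9.52 in part 1 and 4.03, 4.26 and 6.90 in part 7. Apoa1 read 4.17, 4.09 and 6.40 in part 1 and 4.04, 4.11 and 4.99 in part 7. Both were highest in replicate 3 of either part, as was Afp (last paragraph), and neither was called (adjusted p = 0.783 and 0.555 by limma). Neural tube genes summed to 1520 to 1838 in part 1 and 1341 to 1460 in part 7, with Fabp7 lower (-3.35 ± 0.48, adjusted p = 7.18e-05) and Ncam1 higher (1.07 ± 0.12) of 9. Their median difference was 0.10. Pax6 and Olig2 stayed near the floor and Sox1 did not pass. Nes was not called, though without replicate 2 of part 7 it was lower (-1.88, adjusted p = 0.00508 by limma). By limma 0 of 5 neural crest genes were called, and 0 had an unadjusted p under 0.05. Of the notochord and floor plate genes Shh alone passed the filter and was not called (adjusted p = 0.242). Surface ectoderm had Krt8 alone lower of 6, lateral and intermediate mesoderm Wt1 and Lhx1 higher of 7 (0.84 and 1.07), germ cells Ifitm3 lower of 5 (-0.98), and the stress and immediate early genes Gadd45a lower of 13 (-0.88). Lhx1 and Gadd45a lost their calls without replicate 1 of part 1, as did Wt1 and Lhx1 without replicate 2, and Wt1, Lhx1 and Gadd45a without replicate 3. Lhx1 and Gadd45a lost their calls without replicate 1 of part 7, as did Lhx1 without replicate 2, and Wt1 without replicate 3. Wt1 then had an adjusted p of up to 0.14, Lhx1 of up to 0.116 and Gadd45a of up to 0.0788. Calls were also gained by limma. Without replicate 1 of part 7 the stress genes Gadd45g (2.08, adjusted p = 0.00933) and Jun (1.43, adjusted p = 0.0136) were higher. That list then had 2 members higher and 0 lower. Cdh1, of the surface ectoderm list, was lower without replicate 1 of part 1 (-1.33, adjusted p = 0.0195). Summed signals in part 1 and part 7 were 171 to 314 and 271 to 488 for neural crest, 16.8 to 36.1 and 28.5 to 46.6 for notochord, and 127 to 286 and 79.4 to 166 for surface ectoderm. They were 82.7 to 176 and 128 to 184 for lateral and intermediate mesoderm, 142 to 226 and 74.7 to 138 for germ cells, and 4576 to 5249 and 4592 to 5905 for stress genes. The members called were 22.2% of the blood, gut endoderm and neural tube genes, 7.14% of the endothelial and 16.7% of the surface ectoderm genes. They were 28.6% for lateral and intermediate mesoderm, 20% for germ cells, 7.69% for stress genes and 0% for neural crest and notochord. Of all genes 13.4% were called. What other tissues contributed to the differences between the ends was not tested.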

How the data were processed

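Total RNA of dissected PSM, 3 samples for each of 7 parts, was extracted with Trizol, amplified in 2 cycles, biotin-labelled and put on Affymetrix mouse arrays according to the labels' protocols. Amplification of small samples can distort levels. For each probe set the authors deposited a signal intensity on a linear scale, and the submitters' processing notes name MAS5, without a version or a scaling target. Array means are alike after MAS5, which hides any shift common to most genes, and low values are noisy. Precision is limited by the number of arrays.

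Samples were grouped by title. Of 45101 probe sets, 64 controls, 932 with several gene symbols and 9160 with none were left out; 34945 had 1 symbol in the platform annotation, of which 34741 were in the RefSeq table of GRCm38.p6. Each of 18193 genes was represented by its brightest probe set on average, and 12141 were kept that reached the median of all values (13.3) in at least 3 arrays. Fold changes are on the log2(value + 16) scale and understate the change of low genes. Levels of different probe sets were not compared. The test was limma 3.58.1 in R 4.3.3 on all 21 arrays (14 residual degrees of freedom, mean-variance trend, no covariate), with two-sided p-values adjusted by Benjamini-Hochberg. The procedure was tested on simulated data with independent errors, which cannot show the effect of arrays that share an embryo.

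The arrays compared, the gene lists and the alternatives were chosen with earlier results of these data known. Named genes were the 15 largest called differences each way with 1 sign in all 3 same-numbered differences, up to 5 members of each list by size, genes behind counts of 5 or fewer and a fixed set; other list members named in the text were chosen after their values were seen. Motifs were searched on both strands of 250 bases upstream of RefSeq starts: CTTTGAT (TCF/LEF), TTTATNG (CDX), TCACACC (T-box), GTGGGAA (RBPJ), TGACAG (TALE) and the DR5 retinoic acid response element by name. Of the 22 genes with a window, CTTTGAT was found in Cxcl12 (3.21% of all windows) and TTTATNG in Adamtsl2, Evx1 and Uncx (9.81%). GTGGGAA was in Adamtsl2 and Met (5.42%), TGACAG in Adamtsl2, Stum and Uncx (15.9%) and TCACACC in none (3.33%). Alternatives covered the pseudocount, filter, normalization, variance model, probe set choice, arrays in the fit, a replicate block and leaving out arrays.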

Additional observations from a re-analysis of the deposited data

How the results depend on the processing

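The count of 1625 calls stayed within 1.5 times under other pseudocounts, filters, normalizations, variance models and probe set choices, with 0 called genes of opposite sign in any of 21 settings compared gene by gene. With a pseudocount of 64, the genes called and more than 2-fold apart numbered 325. With only the 6 arrays of parts 1 and 7, 1082 genes were called, and the genes higher in part 7 numbered 463. Without replicate 1, 2 or 3 of all parts, or without single arrays, the calls ranged from 701 to 1520, the genes higher in part 7 from 276 to 764, the genes lower in part 7 from 378 to 816 and those over 2-fold from 521 to 732. Of the 221 genes named by the rule, 85 of 164 calls held in every setting, 79 were lost in at least 1, and 25 of 57 genes not called gained a call. The lists of notochord and germ cell genes had no member left with the filter at the 75th percentile and gave no value there. The median of all genes moved by less than 0.1 under every scaling tried.

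With the replicate number as a replicate block, 2850 genes were called, among them all 1625 calls; the genes higher in part 7 numbered 1364 and the genes lower in part 7 1486. As a random replicate block these counts were 2636, 1253 and 1383. The deviations of same-numbered arrays of parts 1 and 7 from their part means correlated at 0.057, 0.092 and 0.43 for replicates 1, 2 and 3. Over all 7 parts, 55 of 63 same-numbered pairs exceeded 0.1, replicate 3 in all 21 (0.371 to 0.677), and 20 of 21 arrays correlated best with an array of their own number, a hint from the data and not the design. All 63 correlations were positive, the lowest being 0.034. The lower quartile of the signal was 2.48 to 2.76 in replicate 3. It was 3.07 to 3.60 in replicate 1 and 2.999 to 3.69 in replicate 2. The largest signal was 8958 to 9480 in replicate 3 and at most 8635 in the others. Since not every pair exceeded 0.1, the threshold set for pairing, the numbers were not taken to pair the samples. The main fit therefore kept the spread shared by arrays of a number in its error, which limits the reading of genes not called. Of 301 list members and named genes not called, 50 were called with the replicate block, among them Epha4 (adjusted p = 0.000775) and Dusp6 (adjusted p = 0.00266), and no call was lost.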

Other observations

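Some large differences lay outside both the lists and the 15 largest each way, and the genes named here were chosen after their values were seen. Among transcription factor genes, the orphan receptor Nr2f2, a relative of Nr2f1, read 5.18, 4.18 and 6.30 in part 1 and 8.85, 9.01 and 8.86 in part 7 and was 12.9-fold higher in part 7 (3.69 ± 0.42, adjusted p = 4.09e-06 by limma). The groups did not overlap. Nr6a1, the germ cell nuclear factor, read 5.27, 4.97 and 5.65 in part 1 and 8.38, 8.20 and 8.82 in part 7 (9.00-fold higher, adjusted p = 7.45e-07), and Myocd, a coactivator of smooth and cardiac muscle genes, 4.30, 4.05 and 4.77 in part 1 and 7.75, 9.07 and 7.33 in part 7 (12.8-fold higher, adjusted p = 1.22e-07). The forkhead genes Foxp1 and Foxd2 were 7.62-fold and 6.89-fold higher and Ebf1, a helix-loop-helix factor, 7.17-fold higher. Fzd2, a Wnt receptor that was in none of the lists of Wnt genes, read 7.32, 6.54 and 7.49 in part 1 and 10.19, 9.84 and 9.93 in part 7 and was 7.29-fold higher (2.87 ± 0.19, adjusted p = 5.79e-09). Cd36, a fatty acid transporter, read 4.02, 4.07 and 4.03 in part 1 and 7.53, 7.01 and 7.46 in part 7, tight in both groups and 9.82-fold apart (3.29 ± 0.18, adjusted p = 3.5e-10).

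In the other direction Cldn9, a tight junction claudin, read 7.91, 8.45 and 8.62 in part 1 and 4.45, 4.76 and 4.85 in part 7 and was 12.4-fold lower in part 7 (-3.64 ± 0.26, adjusted p = 8.46e-09). Hoxa11os, transcribed antisense at Hoxa11, read 7.90, 8.15 and 7.62 in part 1 and 4.06, 5.00 and 4.23 in part 7 (11-fold lower, adjusted p = 1.35e-07), beside the fall of Hoxa11 by 6.04-fold. Kitl, the ligand of the receptor Kit, read 9.59, 10.10 and 9.92 in part 1 and 7.04, 7.36 and 7.16 in part 7 (6.42-fold lower, adjusted p = 2.41e-07), and Vcam1, an adhesion molecule, 8.65, 6.97 and 6.80 in part 1 and 4.07, 5.32 and 4.03 in part 7 (8-fold lower, adjusted p = 0.000643). Btg2, an inhibitor of proliferation, and the kinase Sgk1 were 7.30-fold and 6.79-fold lower (-2.87 ± 0.27 and -2.76 ± 0.31). Amot, a scaffold of the Hippo pathway, was 5.80-fold lower (-2.54 ± 0.21).

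The replicate 3 arrays of both parts shared genes that stood apart. Of the genes more than 1 log2 unit above both other arrays of their part, 13 were shared, 20% of those of part 1 and 20.3% of those of part 7. Of those below, 15 were shared (29.4% and 33.3%). The replicate 2 arrays shared 0 above and 7 below (13% and 12.7%), and the replicate 1 arrays 0 above and 1 below (1.43% and 4.17%). Afp, the fetal serum protein, read 4.17, 4.01 and 10.73 in part 1 and 4.02, 4.02 and 9.18 in part 7, high in replicate 3 of either part and at the floor in the other arrays.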
